A study of Mus musculus with 9 samples.

Results

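Transcripts of 10 genes of vessel growth and vessel coverage were followed in neonatal mouse cardiac fibroblasts during reprogramming towards heart muscle. The genes were the 4 VEGF ligands Vegfa, Vegfb, Vegfc and Vegfd, the PDGF ligands Pdgfa and Pdgfc, the PDGF receptor Pdgfrb, and the mural cell markers Rgs5, Cspg4 and Mcam. They were taken as a list of symbols and not by a cut on their values, which gave 10 of the 34779 named genes. Earlier results of these data were known when the list was made. All 10 had a mean of at least 1 TPM (a transcript level corrected for gene length and scaled to a common total per library) and were among the 13228 genes tested.

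The study profiled wild-type neonatal cardiac fibroblasts, stromal cells that lay down the matrix of the heart, by RNA sequencing in 9 libraries, 3 per group. All cells met a virus 24 h after seeding and were collected at day 14. The DsRed group, the negative control, received a virus for a red fluorescent protein, and the MGT group received one for Mef2c, Gata4 and Tbx5, transcription factors of the developing heart. The MGT+TMP269 group received the MGT virus and TMP269, which blocks the class IIa histone deacetylases and is labelled an HDAC4 inhibitor. The 3 groups share the infection, the medium and the time. The promoter in the virus, the share of infected cells and the animals behind the cultures are not stated. The labels number the replicates as biological but name no separate cultures, so the spread behind the p-values is that of these libraries and may be technical.

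VEGF ligands are secreted dimers that act on receptor tyrosine kinases of endothelial cells. Vegfa is the main driver of blood vessel growth and is induced by low oxygen through the HIF factors, Vegfb binds the receptor Flt1, and Vegfc and Vegfd act on Flt4 and are known for the growth of lymphatic vessels. PDGF ligands act on mesenchymal cells: Pdgfa and Pdgfc signal mainly through Pdgfra of fibroblasts, while Pdgfrb is the receptor by which mural cells are drawn to new vessels. Mural cells, that is pericytes and vascular smooth muscle cells, wrap the endothelial tube. Rgs5, Cspg4 and Mcam are used to mark them, and cultured fibroblasts can also express such genes.

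The libraries held similar totals, from 988020.0 to 988999 TPM, and between 12352 and 13253 genes per library reached 1 TPM. DsRed replicate 2 stood apart, with an upper quartile of 5.38 TPM where the other 8 libraries had 8.69 to 9.57 TPM. Its correlation with the other DsRed libraries over genes was 0.942 to 0.943, and all other pairs within a group reached 0.973 to 0.981. Results of the 10 genes that rest on this library are given with and without it. Each log2 fold change is limma's difference between group means on the log2(TPM + 1) scale ± SE, which understates the change of low genes. The p-values of limma were adjusted by Benjamini-Hochberg over the 13228 genes, and calls required an adjusted p below 0.05. Folds are ratios of mean TPM, and means are ± SD with n = 3. The median log2 fold change of all genes tested was 0.11 for MGT against DsRed, 0.11 for MGT+TMP269 against MGT and 0.22 for MGT+TMP269 against DsRed. Of these genes, 8.14% were called higher and 4.18% lower with MGT against DsRed. With TMP269 against MGT the shares were 3.32% and 5.97%, and between MGT+TMP269 and DsRed 14.7% and 8.06%. Without DsRed replicate 2 they were 12.5% and 13.8%, 19.3% and 11.3%, and 21.4% and 15.3% in the same order. Counts called in the gene lists below stand beside these shares.

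The largest changes among the 10 genes in the comparisons with DsRed were the falls of the lymphatic ligands Vegfd and Vegfc and of Rgs5, and the rise of Cspg4. The promoters of these genes, and of Pdgfc, which rose with MGT and fell with TMP269, are printed so that the regions ahead of genes that moved in different directions can be compared. Each is the window from 250 bases before to 50 bases from the gene start, 5′ to 3′ on the gene's strand, from RefSeq on GRCm38.p6. The deposited values rest on mm9, so these coordinates belong to the RefSeq table. RefSeq windows were found for 9 of the 10 genes; Pdgfrb is named only. Capitals mark the matches of the motifs searched.
Vegfd (chrX:164373272-164373571, forward strand): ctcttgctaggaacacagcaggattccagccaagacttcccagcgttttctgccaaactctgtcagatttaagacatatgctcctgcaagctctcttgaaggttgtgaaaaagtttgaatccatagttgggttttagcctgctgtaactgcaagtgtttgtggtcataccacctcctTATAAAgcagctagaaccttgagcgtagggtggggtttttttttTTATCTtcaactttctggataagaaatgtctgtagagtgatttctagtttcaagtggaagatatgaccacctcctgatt
Vegfc (chr8:54077282-54077581, forward strand): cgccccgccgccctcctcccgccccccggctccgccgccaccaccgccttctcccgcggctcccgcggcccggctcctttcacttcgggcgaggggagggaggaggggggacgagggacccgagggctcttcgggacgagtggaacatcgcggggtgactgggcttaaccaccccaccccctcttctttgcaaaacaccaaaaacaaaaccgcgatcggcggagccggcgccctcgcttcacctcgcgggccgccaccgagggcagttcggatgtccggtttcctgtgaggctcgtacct
Rgs5 (chr1:169655251-169655550, forward strand): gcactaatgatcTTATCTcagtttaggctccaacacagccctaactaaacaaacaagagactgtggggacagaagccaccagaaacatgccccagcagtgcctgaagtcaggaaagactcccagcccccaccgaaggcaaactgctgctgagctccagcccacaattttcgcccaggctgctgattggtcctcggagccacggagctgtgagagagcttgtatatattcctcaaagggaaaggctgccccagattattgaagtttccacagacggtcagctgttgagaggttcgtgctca
Cspg4 (chr9:56864854-56865153, forward strand): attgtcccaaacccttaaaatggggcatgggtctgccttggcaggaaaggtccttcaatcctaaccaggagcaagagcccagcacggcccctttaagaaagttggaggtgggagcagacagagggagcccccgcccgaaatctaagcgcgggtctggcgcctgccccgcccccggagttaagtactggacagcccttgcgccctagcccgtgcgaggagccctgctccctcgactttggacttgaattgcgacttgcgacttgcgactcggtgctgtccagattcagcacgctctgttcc
Pdgfc (chr3:81036166-81036465, forward strand): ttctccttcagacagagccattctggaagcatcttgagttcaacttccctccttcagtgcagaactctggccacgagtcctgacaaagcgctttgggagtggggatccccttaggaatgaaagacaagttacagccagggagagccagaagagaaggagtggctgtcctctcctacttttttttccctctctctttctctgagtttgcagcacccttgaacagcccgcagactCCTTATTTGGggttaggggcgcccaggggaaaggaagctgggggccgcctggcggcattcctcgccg

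Motifs of the delivered factors and of a few others were searched on both strands of these windows. They were AGATAA and TGATAA, which GATA factors such as Gata4 bind, AGGTGT, which T-box factors such as Tbx5 bind, the MEF2 box of Mef2c, the CArG box of serum response factor, ACGTG of the hypoxia response element, and TATAAA, the TATA box. AGATAA and TGATAA share the letters GATAA. The Vegfd window held AGATAA on the reverse strand 29 bases before the gene start and TATAAA 73 bases before it. The Rgs5 window held AGATAA on the reverse strand, 238 bases before the start. In the Pdgfc window a CArG box lay 17 bases before the start and matched on both strands. No motif searched was in the windows of Vegfc, Cspg4, Vegfb or Pdgfa. Of the windows not printed, 1 of 2 Vegfa windows held AGATAA 182 bases before its start, and the other held ACGTG 211 bases before its own start. The Vegfa window with ACGTG (chr17:46025114-46025413, reverse strand) lies downstream, along the gene's strand, of that with AGATAA (chr17:46032328-46032627). Its ACGTG is therefore not ahead of the first of the 2 starts. The Mcam window held AGGTGT 213 bases before the start. Among all 32851 RefSeq windows of 300 bases, 11.2% held AGATAA, 9.05% TGATAA, 13.7% AGGTGT, 19.6% ACGTG, 13.6% TATAAA, 0.557% a MEF2 box and 1.63% a CArG box. A match is a description of the letters and not a site of binding. The windows also differed in base composition: 42.0% of the Vegfd window was G or C, against 70.3% for Vegfc, 52.3% for Rgs5, 60.0% for Cspg4, 55.0% for Pdgfc and a median of 52.7% over all windows.

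The comparison of MGT with DsRed shows what went with the 3 factors, and that of MGT+TMP269 with MGT shows what went with the inhibitor on top of them, which is the question the series set. The comparison of MGT+TMP269 with DsRed shares a group with each of the others, so it is not independent of them. Vegfd fell in every comparison and Vegfc fell in both comparisons with DsRed, while Vegfb rose in MGT+TMP269 cells against both other groups. In the 3 DsRed libraries Vegfd stood at 106, 86.3 and 109 TPM, in the MGT libraries at 13.5, 15.2 and 15.1 TPM, and in the MGT+TMP269 libraries at 4.36, 5.56 and 4.64 TPM. The 3 groups did not overlap, with DsRed highest and MGT+TMP269 lowest, and DsRed replicate 2 was the lowest of its group. Vegfd was 6.88-fold lower in MGT than in DsRed cells, a log2 fold change of −2.69 ± 0.15 (limma adjusted p = 2.45e-06). It was the 13th largest fall on the log2 scale of all 13228 genes tested. TMP269 went with a further fall of 3.01-fold, or −1.42 ± 0.15 on the log2 scale (limma adjusted p = 4.61e-04). Between the outer groups the fall was 20.7-fold, or −4.11 ± 0.15 (limma adjusted p = 1.03e-07), the 11th largest in that comparison. In these bulk libraries, fewer cells of a type and less RNA per cell cannot be told apart, for Vegfd or any of the other genes.

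Vegfc, the other ligand of Flt4, was measured at 22.5, 17.6 and 25.8 TPM in DsRed cells, 5.27, 6.78 and 8.12 TPM in MGT cells and 4.45, 3.26 and 5.26 TPM in MGT+TMP269 cells. All DsRed libraries were above all others. The MGT and MGT+TMP269 libraries came within hundredths of a TPM of each other, with the lowest MGT library just above the highest MGT+TMP269 library. With MGT, Vegfc fell 3.27-fold, a log2 fold change of −1.58 ± 0.23 (limma adjusted p = 0.00130). MGT+TMP269 against DsRed gave −2.11 ± 0.23 (limma adjusted p = 1.42e-04). The difference between MGT+TMP269 and MGT, −0.54 with a 95% interval of −1.05 to −0.03, did not pass the test (limma adjusted p = 0.203).

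The blood vessel ligand Vegfa was the most abundant VEGF in every library. Its values were 170.1, 92.5 and 205 TPM in DsRed cells, 96.6, 102 and 105 TPM in MGT cells and 186, 192 and 181 TPM in MGT+TMP269 cells. The MGT+TMP269 libraries lay close together and above every MGT library, whereas the DsRed libraries spread across both, with replicate 2 below all MGT libraries. MGT+TMP269 was 1.84-fold above MGT, a log2 fold change of 0.87 ± 0.24, which missed the threshold in the fit of all 9 libraries (limma adjusted p = 0.0555). Without DsRed replicate 2, which takes part in that comparison only through the shared spread, the adjusted p was 1.26e-04, and without DsRed replicate 3 it was 0.0270. MGT against DsRed gave −0.54 ± 0.24 (limma adjusted p = 0.203). That difference was −0.88 and was called when DsRed replicate 2 was left out (adjusted p = 1.48e-04). MGT+TMP269 and DsRed did not differ beyond the spread, at 0.33 with a 95% interval of −0.22 to 0.88 (limma adjusted p = 0.349).

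Vegfb, the ligand of Flt1 that is known for its abundance in heart muscle, showed a plainer order. DsRed cells held 41.5, 33.8 and 39.3 TPM and MGT cells 43.4, 37.1 and 38.5 TPM, and the 2 groups overlapped. MGT+TMP269 cells held 70.2, 68.5 and 68.4 TPM, all above every other library. Vegfb rose 1.74-fold with TMP269 against MGT, a log2 fold change of 0.79 ± 0.12 (limma adjusted p = 0.00363). Against DsRed it rose 1.81-fold, or 0.84 ± 0.12 (limma adjusted p = 0.00104). MGT and DsRed differed by 0.06 with a 95% interval of −0.22 to 0.33, and the sign of that difference changed with the scaling of the libraries.

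**Figure D1:**
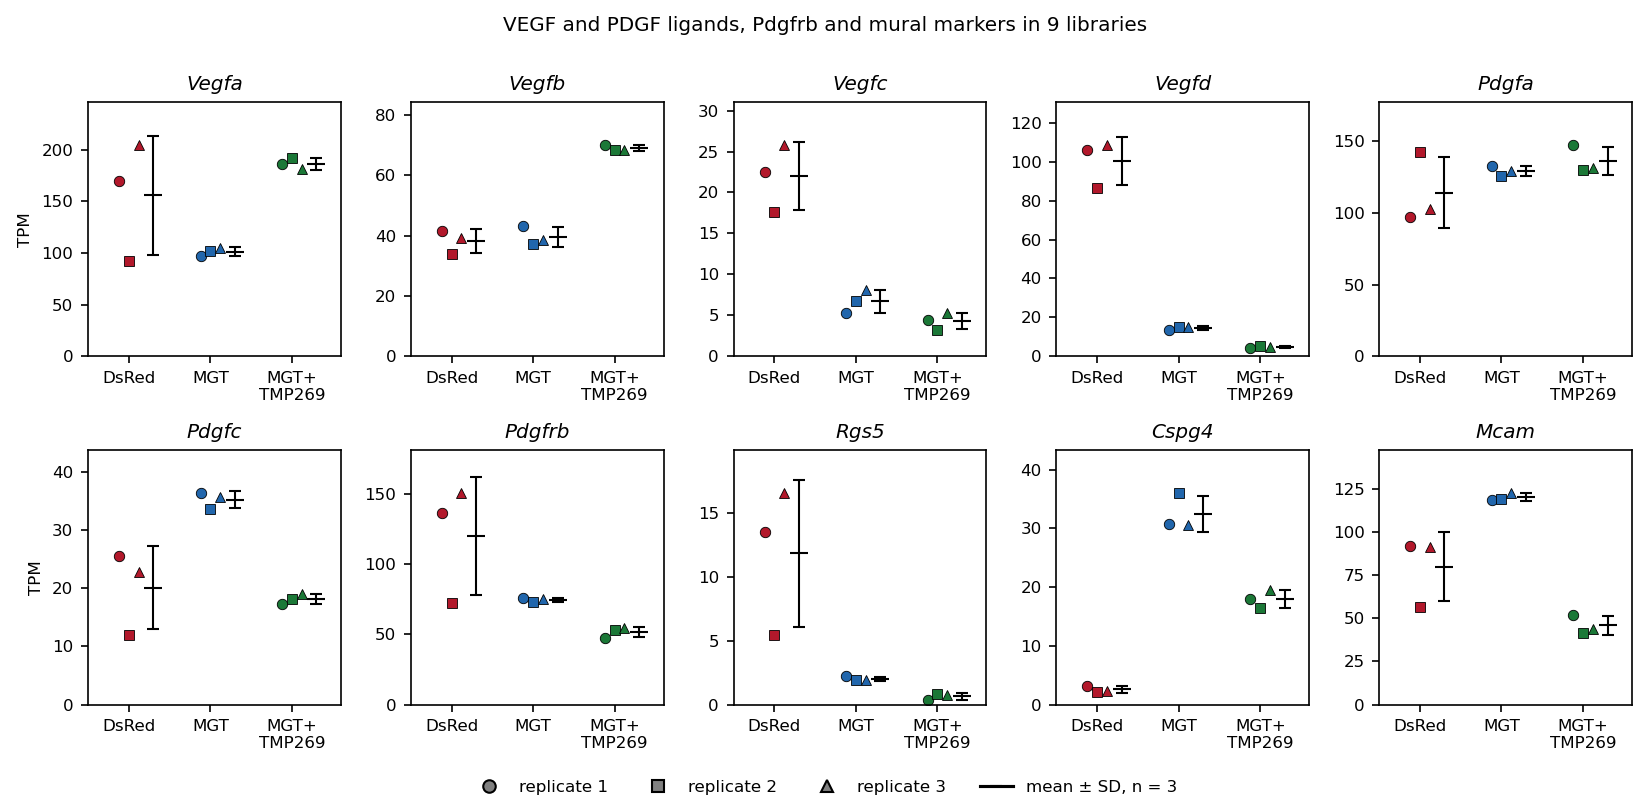
TPM of each of the 10 genes in the 9 libraries, by group (linear axes from 0, 1 panel per gene); marker shapes give the replicate and the bars mean ± SD of 3 libraries. Vegfd falls in steps from 86.3 to 109 TPM in DsRed to 4.36 to 5.56 TPM in MGT+TMP269, Cspg4 is highest in MGT, and DsRed replicate 2 is the lowest DsRed library for every gene but Pdgfa, where it is the highest.

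A scaling of a library cannot change the makeup of the VEGF ligand transcripts. MGT and MGT+TMP269 libraries held smaller shares of the lymphatic ligands and larger shares of Vegfa and Vegfb than DsRed libraries. The mean share of Vegfb was 12.4% in DsRed, 24.5% in MGT and 26.1% in MGT+TMP269 libraries. Vegfd made up 31.2%, 37.5% and 28.7% of the summed VEGF ligand TPM in the DsRed libraries, 8.51%, 9.45% and 9.04% with MGT and 1.65%, 2.07% and 1.79% with MGT+TMP269. The groups did not overlap. The share of Vegfa was 50%, 40.2% and 54.1% in DsRed cells, 60.8%, 63.3% and 63.0% in MGT cells and 70.1%, 71.3% and 69.8% in MGT+TMP269 cells, in the reverse order and again without overlap, and here DsRed replicate 2 was the lowest of all libraries. Of 12 comparisons of a ligand's share between groups, 11 gave the smallest p that 3 against 3 libraries allow in an exact two-sided permutation test, 0.1. The exception was Vegfb between MGT+TMP269 and MGT (exact permutation p = 0.4). These are not separate tests: the 4 shares of a library sum to 100%, so a lower share of Vegfd raises the others, and the 3 comparisons share groups. The share of Vegfa was thus higher in MGT than in DsRed libraries while its mean TPM was lower, at 101 against 156. A smaller p is not possible in this design. The summed TPM of the 4 ligands was 340.1, 230.3 and 379 in DsRed cells, 159, 161 and 167 in MGT cells and 265, 269 and 259 in MGT+TMP269 cells. The sum was thus lowest in MGT cells, and DsRed replicate 2 was below both other DsRed libraries and all MGT+TMP269 libraries.

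**Figure D2:**
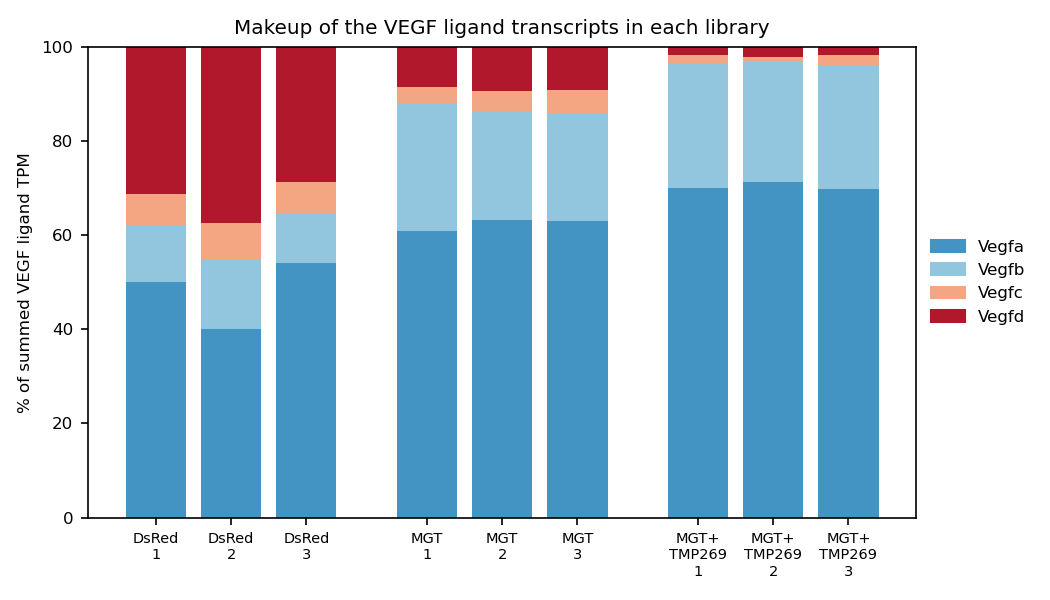
Share of Vegfa, Vegfb, Vegfc and Vegfd in the summed VEGF ligand TPM of each library (stacked bars, percent). The Vegfd band shrinks from 28.7% to 37.5% in DsRed to 8.51% to 9.45% in MGT and 1.65% to 2.07% in MGT+TMP269.

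The endothelial receptors for these ligands ranged from under 1 TPM for Kdr to a mean of 11.9 TPM for Flt1. Kdr, the main signalling receptor of Vegfa, averaged 0.304 TPM in DsRed, 0.443 in MGT and 0.680 in MGT+TMP269 cells and was below the filter. Flt4, the receptor of Vegfc and Vegfd, averaged 2.73 ± 0.933, 2.83 ± 0.185 and 4.06 ± 0.107 TPM in the same order. It was called in no comparison, and without DsRed replicate 2 it was called higher with TMP269 against MGT (adjusted p = 0.0369). Flt1, the receptor of Vegfb, averaged 6.56 ± 1.31, 8.18 ± 0.651 and 11.9 ± 1.33 TPM. Of 6 tested receptors outside the 10 genes, limma called 1 lower with MGT against DsRed, Pdgfra, and 1 lower with TMP269 against MGT, Pdgfrl, a secreted protein that resembles a PDGF receptor. Pdgfrl averaged 11.1 ± 0.455 TPM in MGT and 0.950 ± 0.605 in MGT+TMP269 cells (log2 fold change −2.69 ± 0.27, limma adjusted p = 3.28e-04). Between MGT+TMP269 and DsRed, 1 was higher and 4 were lower. The medians over these receptors were −0.38, −0.90 and −1.55 in the 3 comparisons, below the medians of all genes. Pdgfra, the receptor of Pdgfa and Pdgfc on fibroblasts, was at 30.1, 12.4 and 39.6 TPM in DsRed, 9.52, 8.10 and 8.27 in MGT and 3.67, 3.66 and 4.78 in MGT+TMP269 cells. Every DsRed library was above every MGT library and every MGT library above every MGT+TMP269 library. Pdgfra was 3.17-fold lower in MGT than in DsRed cells (log2 fold change −1.42 ± 0.35, limma adjusted p = 0.0290). That call was lost without any 1 of the 3 MGT libraries, MGT+TMP269 replicate 1, DsRed replicate 1 or DsRed replicate 3, with adjusted p up to 0.0992. The fall of Pdgfra from DsRed to MGT+TMP269 was 6.77-fold (log2 fold change −2.36, limma adjusted p = 0.00128). The coreceptors Nrp1 and Nrp2 were lower by 1.71 and 1.38 on the log2 scale in that comparison (limma adjusted p = 0.00596 and 0.0144), while the Vegfb receptor Flt1 was 0.78 higher (limma adjusted p = 0.0141). The call of Nrp2 was lost without MGT+TMP269 replicate 2, and that of Flt1 without MGT+TMP269 replicate 2 or 3. When DsRed replicate 2 was left out, limma called 3 receptors lower with MGT against DsRed and, with TMP269 against MGT, 2 higher and 4 lower.

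Proteases that process these ligands and their cofactor moved in both directions. Vegfc and Vegfd are made as precursors that proprotein convertases such as Furin and Pcsk5 cut, and Ccbe1 is a secreted cofactor needed for the processing of Vegfc. Of 7 tested genes of this list, 1 rose and 2 fell with MGT against DsRed, 3 fell with TMP269 against MGT, and 1 rose and 3 fell between MGT+TMP269 and DsRed. The list medians were −0.05, −0.09 and −0.13. Pcsk5 rose from 9.36 ± 2.43 TPM in DsRed to 31.6 ± 2.11 in MGT cells (log2 fold change 1.68 ± 0.19, limma adjusted p = 2.58e-04). Ccbe1 was at 6.56, 2.30 and 8.46 TPM in DsRed, 0.571, 0.642 and 1.10 in MGT and 0.724, 1.02 and 0.841 in MGT+TMP269 cells. It fell with MGT alongside Vegfc and Vegfd, by 1.82 ± 0.36 on the log2 scale (limma adjusted p = 0.00904). The plasminogen activators Plat and Plau, whose product plasmin cuts several VEGF ligands, were lower with TMP269 than with MGT alone, by 0.97 and 1.67 (limma adjusted p = 0.0130 and 0.00321). The call of Plat was lost without MGT replicate 2 or MGT+TMP269 replicate 1 or 3. Without DsRed replicate 2 or DsRed replicate 3, 3 genes of the list were higher with MGT against DsRed, and every left-out MGT or MGT+TMP269 library, DsRed replicate 1 and DsRed replicate 3 left 1 lower. In the comparison with MGT, 1 was lower without MGT+TMP269 replicate 1 or 3 and 1 higher without DsRed replicate 2, and against DsRed 2 were higher without DsRed replicate 2 or 3. The other ligands of the families with values were Pgf and Pdgfd. Pgf, which binds Flt1, averaged 4.01 ± 0.881 TPM in DsRed and 1.77 ± 1.01 in MGT+TMP269 cells, and Pdgfd, a ligand of Pdgfrb, 15.5 ± 7.07 and 4.23 ± 0.366. Pdgfd was 3.66-fold lower in MGT+TMP269 than in DsRed cells (limma adjusted p = 0.00407). Pgf was lower in the same comparison (limma adjusted p = 0.0467), a call lost in 8 of the 9 fits that left out 1 library, all but that without MGT+TMP269 replicate 1. Pdgfb, the ligand by which endothelium recruits mural cells, was not analysed here.

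Among the PDGF ligands, Pdgfa was called in no comparison, and Pdgfc rose with MGT and fell with TMP269 at the edge of the threshold. Pdgfa was at 97.4, 143 and 103 TPM in DsRed, 133, 126 and 129.7 in MGT and 148, 130.0 and 132 in MGT+TMP269 cells. DsRed replicate 2 was within the range of the other groups, and the other DsRed libraries were below every MGT and MGT+TMP269 library. The log2 fold changes were 0.20, 0.07 and 0.27, with 95% intervals of −0.13 to 0.53, −0.26 to 0.41 and −0.06 to 0.60, and none was called (lowest limma adjusted p = 0.211). Pdgfa was called higher in MGT and in MGT+TMP269 than in DsRed cells when DsRed replicate 2 was left out (adjusted p = 0.00675 and 0.00202).

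Pdgfc, a ligand that fibroblasts secrete in an inactive form, was at 25.5, 12.0 and 22.8 TPM in DsRed, 36.5, 33.7 and 35.7 in MGT and 17.3, 18.2 and 19.0 in MGT+TMP269 cells. The MGT libraries were above all others, and the DsRed and MGT+TMP269 libraries overlapped. Pdgfc rose 1.76-fold with MGT against DsRed, or 0.85 ± 0.24 on the log2 scale (limma adjusted p = 0.0494), and fell 1.94-fold with TMP269 against MGT, or −0.92 ± 0.24 (limma adjusted p = 0.0429). Both calls were lost without any 1 of the 6 MGT and MGT+TMP269 libraries, with adjusted p up to 0.152 and 0.147. Between MGT+TMP269 and DsRed the difference was −0.07 (limma adjusted p = 0.842). Leaving out DsRed replicate 2, it was −0.39 and called (adjusted p = 0.00875).

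The receptor Pdgfrb was the most abundant of the 4 mural genes in DsRed cells by mean TPM. It stood at 136, 72.5 and 151 TPM in DsRed, 76.1, 73.2 and 74.8 in MGT and 47.7, 53.4 and 54.5 in MGT+TMP269 cells. MGT+TMP269 was below every other library, and DsRed replicate 2 was just below the MGT libraries while the other DsRed libraries were far above them. Pdgfrb fell 2.31-fold from DsRed to MGT+TMP269, a log2 fold change of −1.13 ± 0.24 (limma adjusted p = 0.00846). MGT against DsRed gave −0.61 (95% interval −1.14 to −0.07, limma adjusted p = 0.146) and MGT+TMP269 against MGT −0.52 (95% interval −1.05 to 0.01, limma adjusted p = 0.242). Both were called lower without DsRed replicate 2, at −0.93 and −0.52 (adjusted p = 7.18e-05 and 0.00121).

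The 3 marker genes of mural cells went different ways. Rgs5, a regulator that switches off G protein signals and a common pericyte marker, was at 13.5, 5.45 and 16.6 TPM in DsRed, 2.20, 1.95 and 1.90 in MGT and 0.349, 0.803 and 0.738 in MGT+TMP269 cells. Every DsRed library was above every MGT library, and every MGT library above every MGT+TMP269 library, each of which was under 1 TPM. Rgs5 fell 5.88-fold with MGT, a log2 fold change of −1.97 ± 0.34 (limma adjusted p = 0.00435). From DsRed to MGT+TMP269 the log2 fold change was −2.87 ± 0.34 (limma adjusted p = 3.07e-04). TMP269 against MGT gave −0.90 ± 0.34 with no call (limma adjusted p = 0.162), and a call without DsRed replicate 2 (adjusted p = 0.00569).

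Cspg4, a transmembrane proteoglycan of pericytes and of other progenitor and muscle cells, went the other way with MGT. It was at 3.18, 2.20 and 2.31 TPM in DsRed, 30.7, 36.1 and 30.5 in MGT and 18.0, 16.4 and 19.5 in MGT+TMP269 cells. The groups did not overlap, with MGT highest and DsRed lowest. Cspg4 rose 12.7-fold with MGT, a log2 fold change of 3.24 ± 0.17 (limma adjusted p = 1.27e-06). It was lower by 1.81-fold with TMP269 than with MGT alone, or −0.82 ± 0.17 (limma adjusted p = 0.0143), and still 7.01-fold above DsRed (limma adjusted p = 7.29e-06). The call against MGT was lost without any 1 of the 3 MGT libraries or MGT+TMP269 replicate 1 or 2, with adjusted p up to 0.0772.

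Mcam, a cell adhesion molecule of vascular and muscle cells, was at 91.9, 56.7 and 91.2 TPM in DsRed, 119, 119 and 123 in MGT and 52.0, 41.7 and 43.8 in MGT+TMP269 cells. The MGT libraries were the highest and the MGT+TMP269 libraries the lowest, with no overlap, and DsRed replicate 2 came nearest to the latter. Mcam fell 2.62-fold with TMP269 against MGT, a log2 fold change of −1.38 ± 0.19 (limma adjusted p = 0.00173). It was also lower in MGT+TMP269 than in DsRed cells, by 0.76 ± 0.19 (limma adjusted p = 0.0175), a call lost without MGT+TMP269 replicate 2 or 3 or DsRed replicate 1, with adjusted p up to 0.0695. MGT against DsRed gave 0.62 ± 0.19 (limma adjusted p = 0.0637), and it was called without DsRed replicate 2 or DsRed replicate 3 (adjusted p = 0.0165 and 0.0453).

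Counted over the 10 genes, limma called 2 higher (Cspg4, Pdgfc) and 3 lower (Vegfc, Vegfd, Rgs5) with MGT against DsRed. Of all 13228 genes tested, 8.14% were called higher and 4.18% lower in that comparison. With TMP269 against MGT, 1 gene was called higher (Vegfb) and 4 lower (Vegfd, Pdgfc, Cspg4, Mcam), beside 3.32% and 5.97% of all genes. Between MGT+TMP269 and DsRed, 2 were higher (Vegfb, Cspg4) and 5 lower (Vegfc, Vegfd, Pdgfrb, Rgs5, Mcam), beside 14.7% and 8.06%. The shares of the 10 genes called were above those of all genes. The exception was 2 of 10 higher, near the background of the last comparison. As the 10 genes were chosen with earlier results of these data known, this is a description and no evidence of an excess. The share higher with TMP269 against MGT rests on Vegfb alone. Both calls of Pdgfc were lost without any 1 of the 6 MGT and MGT+TMP269 libraries. The medians over the 10 genes were −0.24, −0.68 and −0.42, each below that of all genes. With MGT against DsRed the counts were 4 higher and 5 lower without DsRed replicate 2, when 12.5% and 13.8% of all genes were called. With TMP269 against MGT they were then 2 higher and 6 lower, beside 19.3% and 11.3%, so that 2 higher stood at the background. Between MGT+TMP269 and DsRed they were 3 higher and 6 lower, beside 21.4% and 15.3%. The split of all called genes depended on the scaling: 66.1% were higher with MGT against DsRed, against 56.1% after median-ratio and 51.2% after quantile scaling. For MGT+TMP269 against DsRed the share was 64.7%, against 47.1% and 50.7%. For MGT+TMP269 against MGT the split turned over with the estimate of the spread: 35.7% of the called genes were higher in the fit of all 9 libraries. That share was 63.4% in a fit of the 2 groups alone, 63.2% with array weights and 63.1% without DsRed replicate 2.

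**Figure D3:**
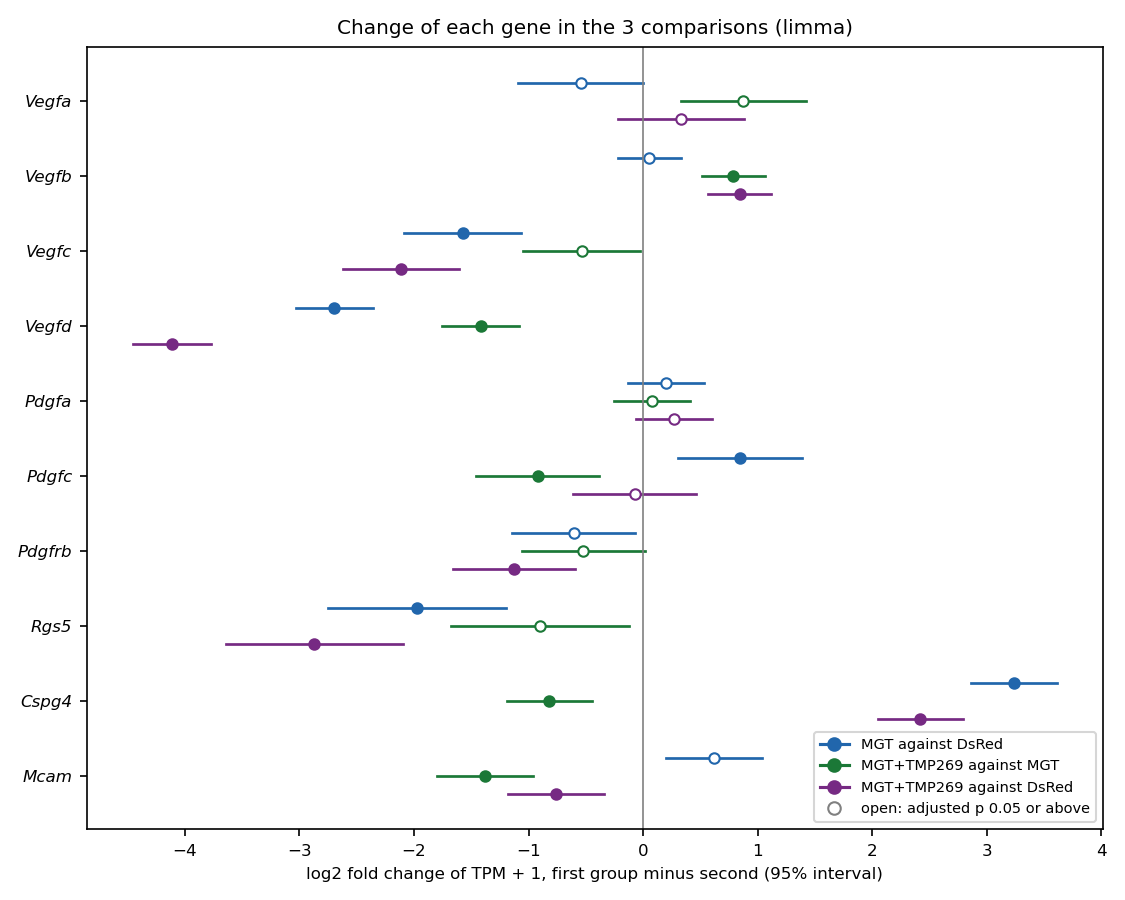
Log2 fold change of TPM + 1 of each gene in the 3 comparisons, with 95% intervals from limma; filled points have an adjusted p under 0.05. Vegfd lies at −2.69, −1.42 and −4.11, and Cspg4 is at 3.24 for MGT against DsRed and −0.82 for MGT+TMP269 against MGT.

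**Figure D4:**
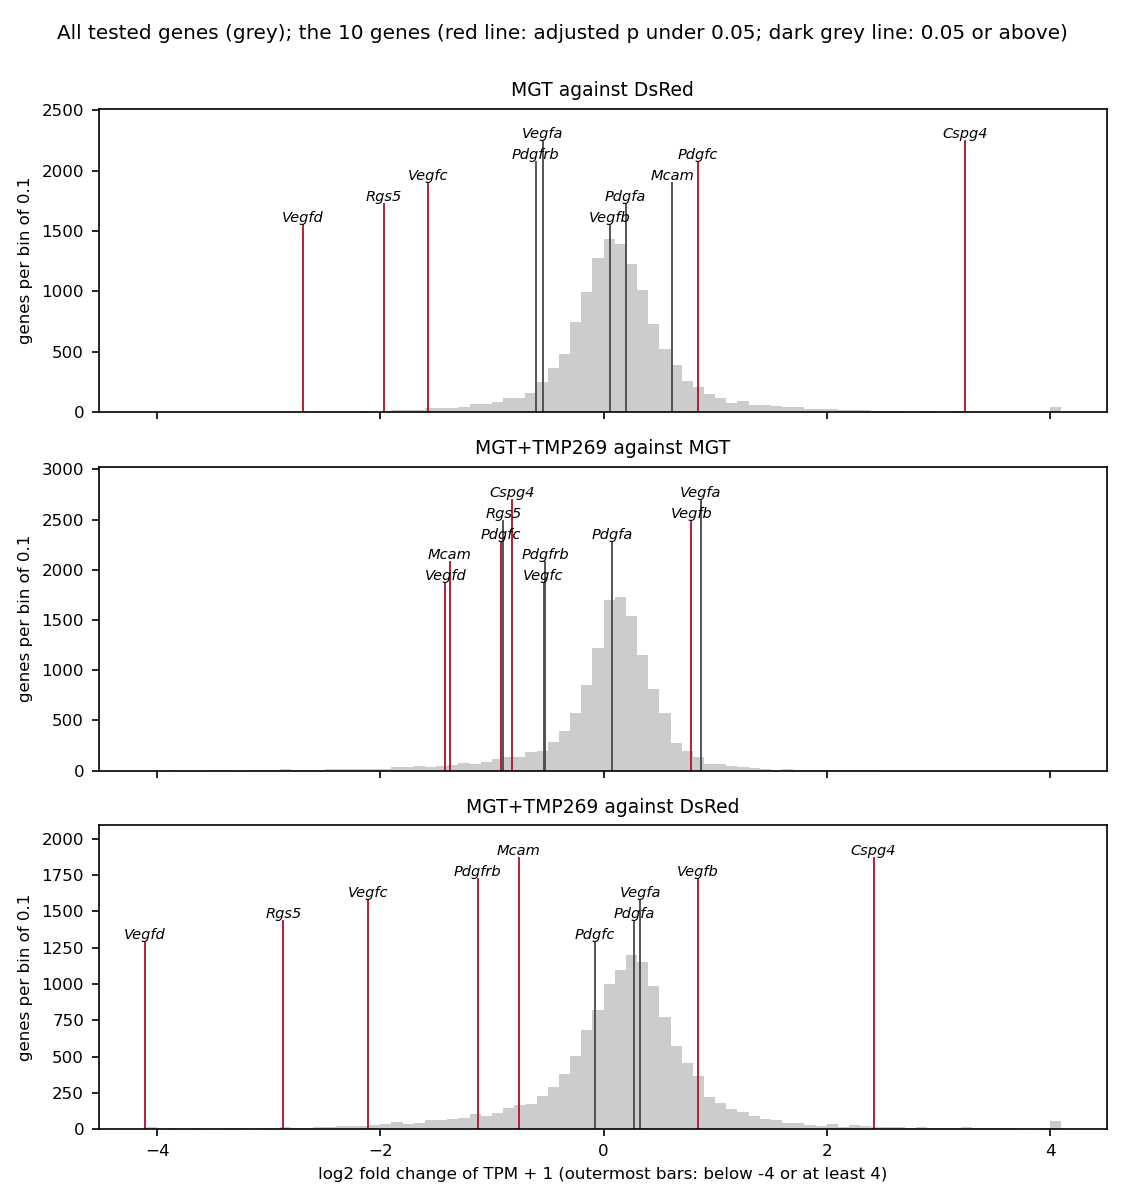
Number of tested genes per bin of log2 fold change in each comparison (grey bars), with the 10 genes as lines, red where called. The bulk of genes lies near 0, while Vegfd, Rgs5, Vegfc and Cspg4 stand in the tails of both comparisons with DsRed.

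Other factors of vessel growth, most of them secreted, fell in the majority of their calls. Of 16 tested angiogenic and antiangiogenic factors, 2 rose and 6 fell with MGT against DsRed. With TMP269 against MGT 1 rose and 6 fell, and 9 fell between MGT+TMP269 and DsRed. The list also holds the HIF transcription factors Epas1 and Hif1a, which are not secreted. Epas1 was among the 9 (limma adjusted p = 0.0261), a call lost in 5 of the 9 fits that left out 1 library. The list medians were −0.29, −0.69 and −0.91. Serpinf1, an inhibitor of vessel growth, was at 727, 600.3 and 764 TPM in DsRed, 186, 193 and 199.6 in MGT and 44.1, 49.3 and 44.4 in MGT+TMP269 cells. It fell 3.61-fold with MGT (limma adjusted p = 5.51e-06) and 4.198-fold more with TMP269 (limma adjusted p = 2.20e-05), the same stepwise order as Vegfd. Thbs2, another inhibitor, fell 3.03-fold and 3.19-fold (limma adjusted p = 0.0104 and 0.00896). Adm, a vasodilator peptide that low oxygen induces, fell 3.59-fold with MGT (limma adjusted p = 1.12e-05). It was 1.59-fold higher with TMP269 than with MGT alone (limma adjusted p = 0.0108), a call lost without MGT replicate 1 or 3 or MGT+TMP269 replicate 2. Angptl2, an angiopoietin-like protein, rose 2.14-fold with MGT and fell 4.28-fold with TMP269 (limma adjusted p = 0.00520 and 3.20e-04), the same pair of directions as Cspg4 and Pdgfc. Cxcl12, a chemokine for vascular and blood cells, fell 2.72-fold with MGT (limma adjusted p = 6.48e-04). Angpt2, a ligand of the endothelial receptor Tek, fell 3.80-fold with MGT (limma adjusted p = 0.00278). The list without DsRed replicate 2 had 11 genes lower with MGT against DsRed and 10 lower with TMP269 against MGT. Of all genes tested, 13.8% and 11.3% were then lower. Leaving out any 1 MGT or MGT+TMP269 library left 3 lower in the latter comparison, where 3.40% to 4.04% of all genes were then lower.

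Genes that low oxygen induces, among them Vegfa and Adm, did not share 1 direction. Of 17 tested genes of the hypoxia list, which holds neither of these, 5 rose and 3 fell with MGT against DsRed, 1 rose with TMP269 against MGT, and 7 rose and 3 fell between MGT+TMP269 and DsRed. The medians of 0.28, 0.10 and 0.46 stood beside 0.11, 0.11 and 0.22 for all genes. Egln3, an oxygen-sensing prolyl hydroxylase, was 6.24-fold higher in MGT than in DsRed cells (limma adjusted p = 5.79e-06), and Ddit4, a stress-induced inhibitor of mTOR, was 3.36-fold lower (limma adjusted p = 8.51e-05). The glucose transporter Slc2a1, which was called higher with TMP269 like Vegfb, rose 1.80-fold against MGT (limma adjusted p = 0.0219), and that call was lost without any 1 of the MGT or MGT+TMP269 libraries. The counts also turned on single libraries: without MGT replicate 2, MGT replicate 3 or MGT+TMP269 replicate 1, 3 genes were higher with MGT, without any 1 of the MGT libraries 1 was lower, and with TMP269 against MGT 4 were higher and 3 lower without DsRed replicate 2 and 2 higher without DsRed replicate 3. Between MGT+TMP269 and DsRed, 4 were higher without MGT replicate 2 or MGT+TMP269 replicate 1. The shares of all genes moved in these fits too. With MGT against DsRed, 5.49% to 6.77% were higher in the fits named first, and 2.59% to 2.67% lower without 1 MGT library. With TMP269 against MGT, 19.3% were higher and 11.3% lower without DsRed replicate 2, and 3.89% higher without DsRed replicate 3. Between MGT+TMP269 and DsRed, 11.7% and 8.61% were higher without MGT replicate 2 and MGT+TMP269 replicate 1.

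The label of mural cells was checked against other markers of these cells. The pericyte genes Kcnj8, Abcc9 and Higd1b, an ion channel pore, its partner subunit and a mitochondrial protein, averaged 0.0987, 0.129 and 0.145 TPM in DsRed cells and were under 1 TPM in every library. Of the 19 other mural markers with values, 5, 5 and 6 were under 1 TPM in DsRed replicates 1, 2 and 3. Others were well above it in these libraries. Gucy1a1 was at 155, 52.5 and 141 TPM, Gucy1b1 at 141, 64.9 and 131 and Foxs1 at 19.2, 21.4 and 19.4. The markers were thus divided, and the 10 genes are described as genes and not as a sign of pericytes. Of 19 other mural markers with values, 14 were tested, and of these 2 rose and 4 fell with MGT against DsRed, 1 rose and 1 fell with TMP269 against MGT, and 2 rose and 6 fell between MGT+TMP269 and DsRed, with medians of −0.68, −0.19 and −0.46. Des, an intermediate filament gene of pericytes and of all muscle, rose from 214 ± 21.9 TPM in DsRed to 1166 ± 34.7 in MGT cells, a 5.45-fold change in the direction of Cspg4 (limma adjusted p = 2.09e-07). Rgs4, a relative of Rgs5, was at 12.2, 8.81 and 15.3 TPM in DsRed, 8.44, 8.08 and 7.21 in MGT and 0.523, 0.409 and 0.605 in MGT+TMP269 cells. Its fall with TMP269 against MGT was called, at −2.56 ± 0.21 on the log2 scale (limma adjusted p = 1.25e-04), and its difference between MGT and DsRed was not (limma adjusted p = 0.159). Without DsRed replicate 2 that difference was called (adjusted p = 0.00975), so that Rgs4 and Rgs5 were then both called lower in both comparisons. Tbx18, a transcription factor of mural and epicardial cells, rose 2.47-fold with MGT (limma adjusted p = 0.00189). Steap4, a metalloreductase, fell with MGT by 2.26 on the log2 scale (limma adjusted p = 7.41e-04). The number lower with MGT was 7 without DsRed replicate 2, and 2 when any of MGT replicates 2 and 3 and DsRed replicates 1 and 3 was left out. Against DsRed, the number lower with MGT+TMP269 was 3 without MGT+TMP269 replicate 1. The lone rise with TMP269 against MGT was lost without any 1 of the MGT or MGT+TMP269 libraries. In that comparison 3, 4 and 2 were higher without DsRed replicates 1, 2 and 3, when 3.36%, 19.3% and 3.89% of all genes were.

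Smooth muscle genes, which mark the other mural cells and also activated fibroblasts, were mostly lower with TMP269, as were Mcam and Cspg4. Of 9 tested, 3 rose and 3 fell with MGT against DsRed, 1 rose and 6 fell with TMP269 against MGT, and 2 rose and 4 fell between MGT+TMP269 and DsRed. The medians were 0.18, −0.88 and −0.20. Cnn1, a calponin of the contractile apparatus, was at 343, 201 and 302 TPM in DsRed, 145, 142 and 141 in MGT and 21.3, 18.4 and 23.8 in MGT+TMP269 cells. It fell 6.72-fold with TMP269 against MGT (limma adjusted p = 5.09e-05), and the actin-binding gene Tagln fell 2.00-fold (limma adjusted p = 1.12e-04). Mylk, a myosin kinase, rose 2.92-fold in the same comparison (limma adjusted p = 0.00206). Ano1, a chloride channel, rose 22.6-fold with MGT (limma adjusted p = 7.23e-06). It was lower with TMP269 than with MGT alone (limma adjusted p = 0.00825, lost without MGT replicate 1), the directions of Cspg4. Myh11, a defining marker of smooth muscle, was not analysed here.

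Markers of other cell types moved with the groups and are given for the values above. The summed TPM of 12 macrophage markers was 712, 726 and 1982 in DsRed, 2700.4, 1819 and 3440.3 in MGT and 103, 126 and 157 in MGT+TMP269 libraries, so it was lowest where Mcam and Pdgfrb were lowest. All 12 fell with TMP269 against MGT, with a median of −3.58, and 11 fell against DsRed, a number that was 7 without MGT+TMP269 replicate 1 or 2. The macrophage receptor Csf1r was 6.58-fold lower and Adgre1 18.1-fold lower with TMP269 (limma adjusted p = 0.00265 and 0.00124). With MGT against DsRed only Lyz2 was called, higher, and that call was lost in 7 of the 9 fits that left out 1 library. Without DsRed replicate 3, 10 of the 12 were called higher, when 10.7% of all genes were. The 12 fibroblast markers summed to 12925, 7834 and 13769.9 TPM in DsRed, 9071, 8473 and 8965 in MGT and 3331, 3396 and 3506 in MGT+TMP269 cells, with 6, 7 and 10 called lower and 1, 0 and 1 called higher in the 3 comparisons and medians of −0.54, −1.08 and −2.14. Dcn, a matrix proteoglycan that marks fibroblasts, averaged 578 ± 92.01 TPM in DsRed cells. The marker called higher was Thy1, a surface glycoprotein, at 202 ± 5.75 TPM in DsRed and 445 ± 15.2 in MGT cells (limma adjusted p = 2.27e-05). It was also higher in MGT+TMP269 than in DsRed cells (limma adjusted p = 1.12e-04). With TMP269 against MGT, where limma called 0 higher, 1 was higher at an unadjusted p under 0.05, and 1, Fbln2, was called without DsRed replicate 2. The 8 cardiomyocyte markers summed to 172, 296 and 220.4 TPM in DsRed, 4571, 5014 and 4523 in MGT and 7097, 7127 and 7725 in MGT+TMP269 cells, with 7, 6 and 8 called higher. Their order across the groups was the reverse of that of Vegfd. The part of these cell types in the changes of the 10 genes was not tested.

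Endothelial cells, which carry the receptors of the VEGF ligands and are the partners of mural cells, left little signal. The 12 endothelial markers together summed to 66.6, 47.3 and 63.2 TPM in DsRed, 48.9, 38.6 and 41.4 in MGT and 35.5, 34.4 and 37.2 in MGT+TMP269 cells, and the phosphatase Ptprb gave much of it. The adhesion molecules Pecam1 and Cdh5 averaged 3.80 and 2.14 TPM in DsRed cells, and Cldn5, a tight junction gene, was listed at 0 in 8 of the 9 libraries. Of 8 tested endothelial markers, limma called 0 with MGT against DsRed, where 4 were lower at an unadjusted p under 0.05, and 0 with TMP269 against MGT, where 3 were. Without DsRed replicate 2 the calls were 3 and 2 lower, without MGT replicate 1 the first was 1, and without DsRed replicate 3 the second was 1. Between MGT+TMP269 and DsRed, 3 were called lower, or 5 without DsRed replicate 2. Of the lymphatic markers, Prox1 and Lyve1 averaged under 1 TPM in DsRed and MGT cells (0.286 and 0.0955 TPM in DsRed). In the MGT+TMP269 libraries Prox1 was at 1.10 to 1.38 TPM, above every DsRed and MGT library, and Lyve1 stayed under 1 TPM. Both genes were below the filter, so the higher Prox1 with TMP269 was not tested. Pdpn, which fibroblasts express too, fell 2.13-fold with MGT (limma adjusted p = 0.00359). Their part in the changes of Vegfc, Vegfd or Rgs5 was not tested.

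**Figure D5:**
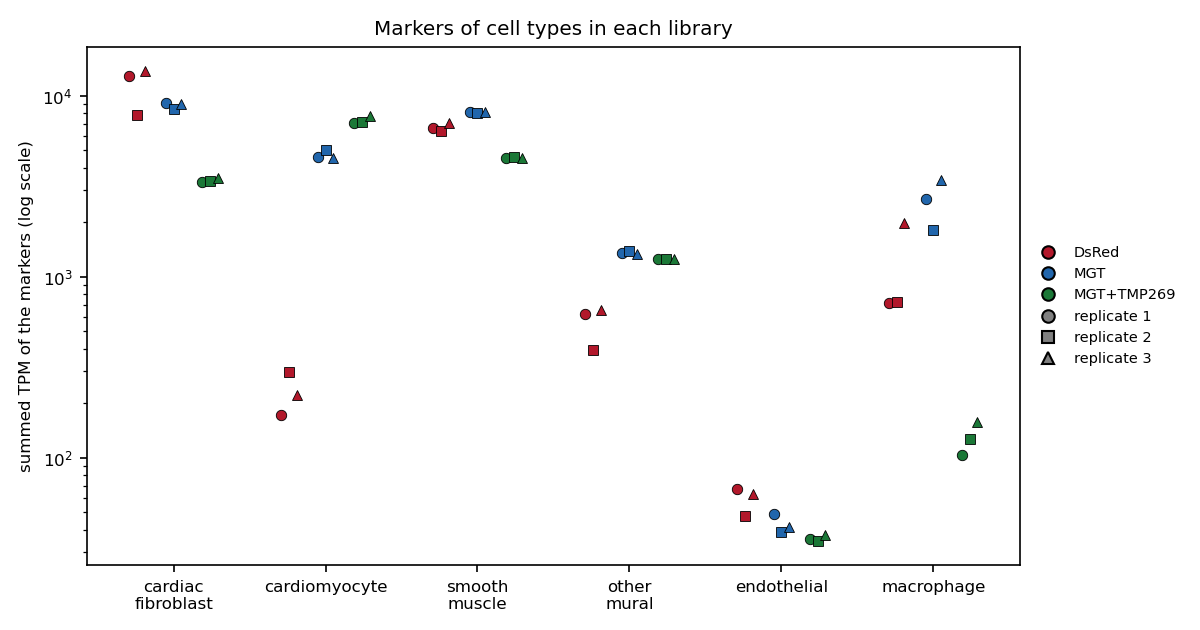
Summed TPM of the markers of 6 cell types in each of the 9 libraries (log axis), by group and replicate. Macrophage markers drop to 103 to 157 TPM in MGT+TMP269, cardiomyocyte markers rise from DsRed to MGT and MGT+TMP269, and endothelial markers have the lowest sum of the 6 lists in all 9 libraries. The other mural markers sum to 621, 394 and 653 TPM in DsRed and 1345, 1391 and 1326 TPM in MGT libraries. Des, a gene of all muscle, gave 1157, 1204 and 1137 TPM of the latter. Of the 14 tested markers of that list, 2 were called higher and 4 lower with MGT against DsRed.

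The genes whose profile was most like each of the 10 were found from the root-mean-square difference of log2(TPM + 1), centred on each gene's mean, over the 9 libraries. It is 0 for an identical profile. Closest to Vegfd were Mmp3 (0.21), Smoc1 (0.28), Sfrp1 (0.29), where the value in parentheses is that difference. Mmp3 is a matrix protease, Smoc1 a matrix protein and Sfrp1 a secreted antagonist of WNT signals. Mmp3 averaged 163 TPM in DsRed, 27.4 in MGT and 9.10 in MGT+TMP269 cells, falling in steps like Vegfd. Closest to Cspg4 were Ache (0.15), Cnnm2 (0.22), Nrap (0.22), of which Nrap is a protein of striated muscle and Ache breaks down acetylcholine. Closest to Rgs5 were Tnc (0.19), Pdgfra (0.28), Tll1 (0.29), with the matrix protein Tnc and the receptor Pdgfra of the fibroblast list among them. For Mcam they were Rflnb (0.13), Gna15 (0.15), Vcan (0.16), and for Vegfb Gyg (0.08), Plpp6 (0.09), Ppp1r3d (0.10). Gyg primes glycogen synthesis, and Ppp1r3d targets a phosphatase to glycogen. For Vegfc they were Gdf6 (0.18), Slc1a6 (0.18), Cdh3 (0.23), for Pdgfc Jpt2 (0.12), Errfi1 (0.12), Ereg (0.12), and for Pdgfrb Vcam1 (0.10), Plod2 (0.10), Cav1 (0.11). These are descriptions over 9 libraries of 3 groups, which share the spread of DsRed replicate 2.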

How the data were processed

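Total RNA of 9 samples of infected neonatal mouse cardiac fibroblasts was sequenced from directional libraries, per the labels' protocols. The authors deposited TPM values per gene symbol, which are corrected for length and scaled to a common total. The tools kallisto and DESeq2 and the build mm9 are named per the submitters' processing notes. Versions, roles, annotation and use of the read strand: not given in the sources used here, so overlapping, antisense and near-identical genes are uncertain. TPM keeps no depth, so depth is unknown and no counting interval or floor was computed. With a fixed total, genes that rise strongly take share from the rest. Of 34804 lines, 25 carried a date in place of a symbol (0.123% to 0.176% of the TPM) and were left out. No 2 libraries held identical values (0 pairs).

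limma 3.58.1 in R 4.3.3 was run on log2(TPM + 1), with genes of a mean TPM of at least 1 over the 9 libraries, 1 fit of all 9 libraries with the group as its term, a variance trend and 6 residual degrees of freedom. Tests were two-sided. The procedure was tested on simulated data with independent noise, the same spread of a gene in all libraries and no outlying library. That test does not cover a library like DsRed replicate 2. Shares of the VEGF ligands were compared by an exact permutation test. A fold needed a mean of 1 TPM or more in both groups. The design allowed for a count model or limma, and the unit led to limma.

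The 10 genes and the 13 lists were chosen with earlier results of these data known, so no list count is independent evidence. Named genes are the 10, from each list up to 4 genes with the smallest adjusted p in a comparison, defining cell type markers, receptors, and the 3 genes most like each of the 10. Members of a list beyond these were named for the account of a list after their values were seen. Among them were Nrp2, Pgf, Furin, Epas1, Hif1a, Kcnj8, Abcc9, Higd1b, Cldn5 and Ptprb. Alternatives covered the pseudocount, the filter, the scaling, the variance trend, a fit of only the groups compared, array weights, a replicate block and each library left out. Promoter windows are RefSeq's on GRCm38.p6 and were used for sequence only.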

Additional observations from a re-analysis of the deposited data

How the results depend on the processing

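Of 567 log2 fold changes of the 10 genes recomputed under an alternative, 493 kept their direction and their side of the threshold, 32 were no longer called, 33 were newly called and 9 changed sign. The calls of Vegfd in all 3 comparisons, of Vegfc, Rgs5 and Cspg4 against DsRed, of Vegfb against MGT and DsRed, and of Mcam between MGT+TMP269 and MGT held under every alternative in which the gene was tested. The sign changes were all of uncalled differences. For Vegfb between MGT and DsRed the value was −0.079 with median-ratio scaling, −0.046 with quantile scaling, −0.017 with array weights, −0.00948 without MGT replicate 1 and −0.029 without DsRed replicate 2. Pdgfa between MGT+TMP269 and MGT was −0.040 with median-ratio scaling. Against DsRed, Pdgfc with MGT+TMP269 was 0.12 and 0.043 without DsRed replicates 1 and 3, and from −0.39 up over all libraries left out; Vegfa was −0.00444 without DsRed replicate 2 and up to 0.56 without another library. For MGT against DsRed, 1 of the 10 genes was called higher with a pseudocount of 0.1 or 0.5, no filter, no variance trend, a fit of the 2 groups or the replicate block, 4 with array weights, and 1 to 4 with a library left out; 5 were lower with median-ratio scaling or array weights, and 3 to 5 with a library left out. For MGT+TMP269 against MGT, 2 were higher with median-ratio or quantile scaling, a fit of the 2 groups or array weights, and 1 to 2 with a library left out; 7 were lower with array weights and 2 to 6 with a library left out. For MGT+TMP269 against DsRed, 3 were lower without a filter and 4 to 6 with a library left out. All called genes numbered 1630, 1229 and 3016 in the 3 comparisons. The fit of the 2 groups called 1066, 4476 and 1789, array weights called 2915 and 4818 in the first comparisons, and a library left out gave 1068 to 3476, 635 to 4054 and 1865 to 4848. The low counts came without single MGT or MGT+TMP269 libraries and the high ones without DsRed replicate 2; beyond fewer libraries, the cause was not tested. Deviations of same-numbered libraries from their group means correlated at −0.0698 to 0.132, not all best with their own number. With 3 libraries a group, these values cannot decide whether same-numbered libraries were paired. The replicate block called 1418, 947 and 2679 genes. With depth unknown, the counting error of low values, such as those of Rgs5 with MGT+TMP269 and of Cspg4 in DsRed cells, could not be estimated.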
